A study of Homo sapiens with 12 samples.

Results

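The genes described here encode the steps that break down the branched-chain amino acids leucine, isoleucine and valine. They were 9 named genes of the 60670 in the count table: the transaminases BCAT1 and BCAT2, the branched-chain ketoacid dehydrogenase (BCKD) subunits BCKDHA, BCKDHB and DBT, and the leucine enzymes IVD, MCCC1, MCCC2 and AUH. The genes were chosen by symbol after the fold changes and adjusted p-values of this same comparison were known, and MCCC2 was set against its partner MCCC1 for that reason. Their fold changes and adjusted p-values are therefore a description of these libraries and not an independent test of the pathway.

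RNA came from MDA-MB-453, an established human breast cancer cell line. One group of 6 libraries came from cells given the androgen dihydrotestosterone (DHT) at 10 nM, and the other group of 6 from cells given vehicle, 0.001% ethanol. Exposure lasted 6 h and followed 72 h of growth, for both groups, in DMEM of high glucose content containing fetal bovine serum. The replicates were described as independent and drawn from consecutive passages of this single line, so the spread between libraries is a spread between cultures.

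In branched-chain amino acid breakdown, a transaminase first moves the amino group to a ketoacid, which gives glutamate. BCAT1 is the cytosolic and BCAT2 the mitochondrial form. The BCKD complex then commits the carbon skeleton to breakdown inside mitochondria. For leucine, IVD oxidises isovaleryl-CoA, methylcrotonyl-CoA carboxylase (MCC) adds a carboxyl group with the help of biotin, and AUH hydrates the product, which is finally split into acetyl-CoA and acetoacetate. MCCC1 encodes the biotin-carrying alpha subunit of MCC and MCCC2 the beta subunit, and the working enzyme holds both.

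MCCC2 rose after DHT while MCCC1, made into the same enzyme, did not pass the test. The sequences before the RefSeq start sites of these partners (build GRCh38.p14) are shown because their RNAs responded differently. Each run is the 250 bases before the most upstream start in the RefSeq table, 5′ to 3′ on the strand of the gene. They lie at chr5:71587090-71587339 (plus strand) for MCCC2 and chr3:183099588-183099837 (minus strand) for MCCC1. The counted model of MCCC1 begins further upstream, at 183116075, so its window lies inside the span of that model. The counted model of MCCC2 begins at 71587288, within its window. The table held 3 windows for MCCC1 and 1 for MCCC2. Capitals mark the E-box CACGTG, a site that MYC and related factors can bind, and the CCAAT box, written CCAAT or, on the other strand, ATTGG.
MCCC2: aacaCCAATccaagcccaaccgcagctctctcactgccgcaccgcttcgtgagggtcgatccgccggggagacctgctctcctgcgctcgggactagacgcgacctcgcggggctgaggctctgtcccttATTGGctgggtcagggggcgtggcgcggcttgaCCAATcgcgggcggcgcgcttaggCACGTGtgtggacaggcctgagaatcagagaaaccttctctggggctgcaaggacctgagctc
MCCC1: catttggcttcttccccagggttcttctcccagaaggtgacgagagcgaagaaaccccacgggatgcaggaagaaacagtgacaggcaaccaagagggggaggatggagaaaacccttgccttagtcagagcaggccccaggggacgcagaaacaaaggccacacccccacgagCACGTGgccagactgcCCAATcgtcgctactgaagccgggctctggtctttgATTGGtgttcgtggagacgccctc

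The partners had the same kinds of match in these windows. The E-box began 63 bases before this RefSeq start of MCCC2 and 76 bases before that of MCCC1. Of 27305 gene windows of the same length, 6.46% held one. MCCC2 had 3 CCAAT matches and MCCC1 had 2, a motif found in 33.0% of windows. An E-box together with a CCAAT box was present in 2.06% of windows. The full androgen response element (AGAACA, any 3 bases, TGTTCT) and its single arm AGAACA were searched on both strands, the arm being contained in the full element. Both had 0 matches in either window, while the full element occurred in 0.00366% and the arm in 12.4% of all windows. Of the 8 members with a window in the table, BCAT1 was the one with an arm (1 match), and an E-box was found in the windows of MCCC1 and MCCC2 and in none of the other 6. A match of letters is a description and says nothing about binding.

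Across the series, library totals ran from 9486951 to 25678781 counts in DHT libraries and from 4346465 to 16963880 counts in vehicle libraries. Levels are given as CPM, with the TMM correction for library composition. They are relative to the library's total over the genes that passed a filter on low counts. Relative to the total over all genes, and before that correction, 1 count was worth 0.0389 to 0.230 CPM. Both replicate 2 libraries stood apart on the first principal component (77.4 for DHT replicate 2 and 83.8 for vehicle replicate 2, with the other libraries between -32.3 and 23.3), which held 51.1% of the variance, and results in which they decide a direction, an overlap or a call are also given without them. Mitochondrially encoded RNA took 3.03% to 4.00% of counts in DHT libraries and 3.09% to 8.07% in vehicle libraries, highest in vehicle replicate 5. The labelled line was checked by its luminal markers: EPCAM ran from 245 to 285 CPM in DHT and 254 to 366 CPM in vehicle libraries, KRT8 from 233 to 709 and 326 to 1078 CPM, and ERBB2 from 581 to 1024 and 996 to 2165 CPM. The receptors ESR1 and PGR had 40 and 39 counts over all 12 libraries. Markers of leukocytes summed to at most 0.202 CPM in DHT and 0.854 CPM in vehicle libraries, those of endothelium to at most 0.641 and 1.47 CPM, and those of basal cells to at most 1.18 and 4.42 CPM. The fibroblast list summed to 59.3 to 73.6 CPM in DHT and 73.4 to 108 CPM in vehicle libraries, nearly all of it COL1A1 (56.1 to 71.5 CPM in DHT and 69.2 to 106 CPM in vehicle libraries), which did not pass the test (adjusted p = 0.166, edgeR). The part of these marker shifts in the results below was not tested.

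Of the 9 members, 7 passed the filter on low counts and were tested in edgeR's quasi-likelihood fit across 16355 genes, with an adjusted p under 0.05 as the threshold. One of them, MCCC2, rose, 0 fell and 6 did not pass. In the same fit 2.84% of all tested genes passed, 1.96% raised and 0.88% lowered. At an unadjusted p under 0.05 the fit also gave 1 raised and 0 lowered members, where 6.59% of all tested genes were raised and 5.41% lowered. DESeq2 and limma-voom gave the same 1 and 0 at an adjusted p under 0.05. DESeq2 raised 3.12% and lowered 1.73% of all genes, and limma-voom 1.91% and 0.893%. The median log2 fold change of the 7 tested members was 0.05, against -0.05 for all tested genes. BCAT1 and BCKDHA were not tested.

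**Figure D1:**
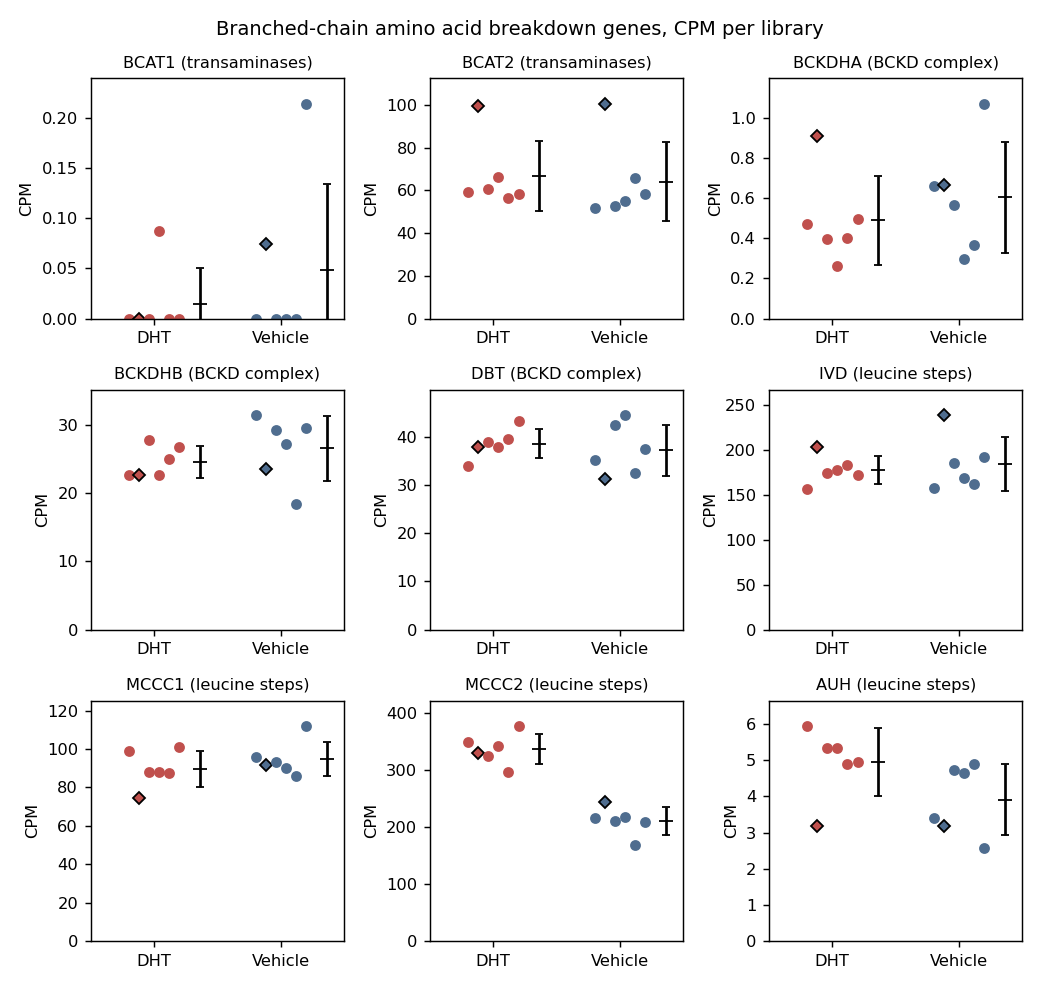
CPM of each member in every library (vertical axes from 0), with DHT libraries on the left and vehicle libraries on the right of each panel; diamonds are the replicate 2 libraries and the bar is the mean ± SD of 6. MCCC2 is the panel in which the groups do not overlap, from 297 to 376 CPM in DHT and 168 to 243 CPM in vehicle libraries.

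Among the transaminases, BCAT2 was the expressed gene and BCAT1 was close to undetected. BCAT1 (ENSG00000060982, chromosome 12, 24810024 to 24949101, minus strand, GRCh38) had 1 count over the 6 DHT libraries and 2 counts over the 6 vehicle libraries. Both lie under a floor of 3 counts per group, which corresponds to 0.0340 CPM over the DHT and 0.0393 CPM over the vehicle libraries (counting error only), so no fold was formed. The mitochondrial BCAT2 (ENSG00000105552, chromosome 19, 48795062 to 48811029, minus strand) had a lowest, median and highest level of 56.5, 59.9 and 99.7 CPM in DHT libraries and 51.7, 56.8 and 100.4 CPM in vehicle libraries. The groups overlapped, and the highest library of each was replicate 2. BCAT2 averaged 66.8 ± 16.5 CPM in DHT and 64.1 ± 18.5 CPM in vehicle libraries (SD, n = 6 each; log2 fold change 0.06, SE 0.19, 95% interval -0.34 to 0.46, adjusted p = 0.961, edgeR). The sign of this small difference turned without DHT replicate 2 alone (-0.093), and without both replicate 2 libraries the log2 fold change was 0.087 (adjusted p = 0.627, edgeR; adjusted p 0.506 to 0.998 over the alternatives).

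The BCKD complex has a dehydrogenase made of an alpha subunit (BCKDHA) and a beta subunit (BCKDHB), and a transacylase core (DBT). BCKDHB (ENSG00000083123, chromosome 6, 80106647 to 80346270, plus strand) had 22.6, 23.8 and 27.8 CPM as lowest, median and highest of the DHT libraries and 18.5, 28.2 and 31.4 CPM in vehicle libraries. Vehicle values spread on both sides of all DHT values. The log2 fold change was -0.11 (SE 0.13, 95% interval -0.40 to 0.18, adjusted p = 0.888, edgeR). DBT (ENSG00000137992, chromosome 1, 100186919 to 100249834, minus strand) had 33.9, 38.3 and 43.2 CPM in DHT and 31.1, 36.3 and 44.4 CPM in vehicle libraries, again with full overlap. Its log2 fold change was 0.05 (SE 0.11, 95% interval -0.19 to 0.29, adjusted p = 0.945, edgeR). The ratio of BCKDHB to DBT counts was 0.640 ± 0.0460 in DHT and 0.718 ± 0.119 in vehicle libraries (SD, n = 6 each), a difference within the spread of the vehicle libraries. DBTP1, a pseudogene copy of DBT that could share reads with it, carried 10.5 counts over the DHT and 3 counts over the vehicle libraries, against 3376 and 2828 for DBT.

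BCKDHA (ENSG00000248098, chromosome 19, 41397808 to 41425002, plus strand) had 47.5 counts over the DHT and 42 counts over the vehicle libraries, or 0.490 ± 0.222 CPM and 0.603 ± 0.274 CPM (SD, n = 6 each), and did not pass the filter. Its counted model is mostly shared with another gene. Of the 2251 bases in its counted model, 1660 (73.7%) also belong to a second gene on the same strand, ENSG00000255730, whose 2347 bases join exons of TMEM91 to exons of BCKDHA and leave 58 bases of its own. That gene had 0 counts in all 12 libraries. Among all genes counted, 1264 had no base free of another gene on their strand. Of those, 1181 had 0 counts in every library, and the highest total among the other 83 was 164 counts. The part of this overlap in the low BCKDHA level was not tested. Over the 591 bases that BCKDHA does not share, its counts correspond to 0.830 ± 0.375 CPM per kb in DHT and 1.02 ± 0.464 CPM per kb in vehicle libraries (SD, n = 6 each), in overlapping ranges. These bases lie in separate short blocks, none longer than 0.128 kb and some directly between shared blocks. Whether the counts came from these bases was not tested, so the values per kb are not an estimate of the BCKDHA level.

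**Figure D2:**
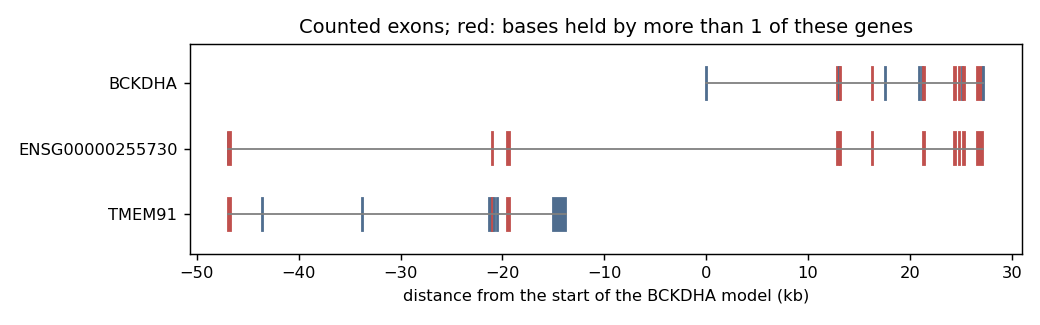
Exon blocks as counted for BCKDHA, ENSG00000255730 and TMEM91, drawn as distance in kb from the start of the BCKDHA model; red blocks are bases held by more than 1 of these genes and blue blocks are held by 1. Most of the BCKDHA blocks are red, 1660 of 2251 bases.

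The first leucine step after the BCKD complex did not pass. IVD (ENSG00000128928, chromosome 15, 40405485 to 40435947, plus strand), the dehydrogenase of isovaleryl-CoA, had 156, 176 and 203 CPM as lowest, median and highest in DHT libraries and 158, 177 and 238 CPM in vehicle libraries. The groups overlapped and replicate 2 was the highest library in each. Its log2 fold change was -0.05 (SE 0.12, 95% interval -0.31 to 0.21, adjusted p = 0.952, edgeR), and it was slightly positive under scaling by library totals (0.012) and without vehicle replicate 2 (0.036). Without both replicate 2 libraries it was -0.0022 (adjusted p = 0.994, edgeR; 0.713 to 1.00 over the alternatives). AUH (ENSG00000148090, chromosome 9, 91213815 to 91361918, minus strand), the hydratase after MCC, was scarce, with 50 to 94 counts per DHT library and 12 to 67 per vehicle library. It had 3.19, 5.15 and 5.94 CPM in DHT and 2.56, 4.03 and 4.89 CPM in vehicle libraries, and 4 of the 6 DHT libraries lay above the highest vehicle library. Its log2 fold change of 0.32 did not pass (SE 0.20, 95% interval -0.11 to 0.74, adjusted p = 0.645, edgeR). That interval holds both no change and a rise as large as that of MCCC2.

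MCCC2 (ENSG00000131844, chromosome 5, 71587288 to 71658706, plus strand) had 349, 330, 324, 341, 297 and 376 CPM in DHT replicates 1 to 6 and 216, 243, 211, 217, 168 and 208 CPM in vehicle replicates 1 to 6. Every DHT library lay above every vehicle library, which held for 2.28% of all tested genes, while 0.991% had every DHT library below. The mean was 336 ± 26.6 CPM in DHT and 211 ± 24.2 CPM in vehicle libraries (SD, n = 6 each), a 1.60-fold rise (log2 fold change 0.68, SE 0.11, 95% interval 0.44 to 0.91, adjusted p = 0.00393, edgeR). It ranked 110th of the 16355 tested genes by p-value. In bulk RNA, more RNA per cell and more cells that express the gene cannot be told apart. The gene was well counted, with 3704 to 7239 counts per DHT library and 976 to 3603 per vehicle library, and no other gene model shares its bases.

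MCCC2 passed in all 24 other fits run, with log2 fold changes from 0.62 to 0.73 and adjusted p from 5.77e-11 to 0.0163. The lowest value was found without vehicle replicate 5, the library with the lowest MCCC2 level and the highest mitochondrial share (log2 fold change 0.62, adjusted p = 0.00327). Without both replicate 2 libraries the log2 fold change was 0.73 (adjusted p = 8.91e-04). In the authors' deposited table the log2 fold change of MCCC2 is 0.70, with an adjusted p of 0.00244. That table calls 4.25% of its 14559 genes, with 2.66% raised, and lists the same 7 members, of which the other 6 have adjusted p-values from 0.773 to 1 in that deposited table.

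MCCC1 (ENSG00000078070, chromosome 3, 183015218 to 183116075, minus strand) had 99.1, 74.7, 88.0, 88.0, 87.4 and 101 CPM in DHT replicates 1 to 6 and 95.7, 91.6, 93.3, 90.1, 85.7 and 112 CPM in vehicle replicates 1 to 6. The groups overlapped, with the lowest library in the DHT group and the highest in the vehicle group. It averaged 89.7 ± 9.48 CPM in DHT and 94.7 ± 8.99 CPM in vehicle libraries (SD, n = 6 each). The log2 fold change was -0.08 (SE 0.10, 95% interval -0.30 to 0.14, adjusted p = 0.898, edgeR). The upper end of this interval, 0.14, lay below the lower end of the interval for MCCC2, 0.44. The antisense gene MCCC1-AS1 shares 72 of 4311 bases with MCCC1 and carried 50.8 counts over the DHT and 55.5 counts over the vehicle libraries, against 7766 and 7070 for MCCC1.

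**Figure D3:**
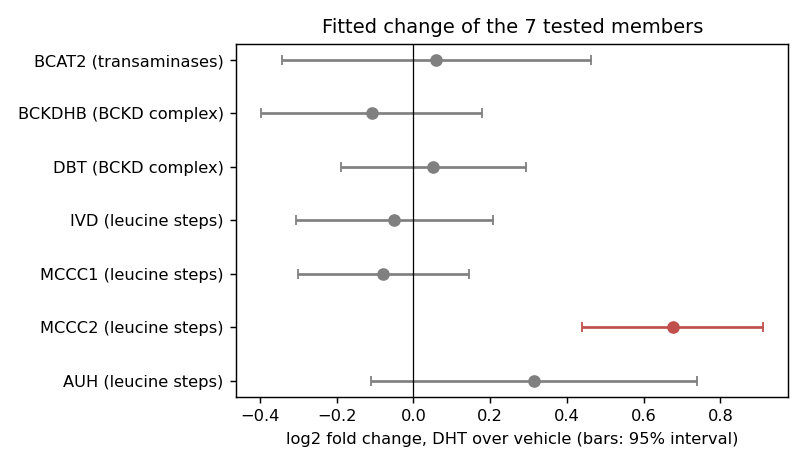
Fitted log2 fold change (horizontal axis, DHT over vehicle) of the 7 tested members in pathway order, with 95% intervals as bars; red passed the threshold and grey did not. MCCC2 stands at 0.68 and the interval of each of the other 6 includes 0.

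Because MCCC2 and MCCC1 are counted in the same library, their ratio does not depend on depth or scaling. Per base of gene model, MCCC2 had 2.52, 3.15, 2.63, 2.77, 2.43 and 2.66 times the counts of MCCC1 in DHT replicates 1 to 6 and 1.61, 1.90, 1.61, 1.72, 1.40 and 1.33 times in vehicle replicates 1 to 6. The groups did not overlap, and replicate 2 had the highest ratio in each. The mean ratio was 2.69 ± 0.255 in DHT and 1.60 ± 0.206 in vehicle libraries (SD, n = 6 each). On the log2 scale the DHT mean lay 0.76 above the vehicle mean (SE 0.09), a factor of 1.69, and leaving out any single library gave 0.71 to 0.81. No test is given, since the pair was named with its values known. For comparison, PCCB and PCCA, the beta and biotin-carrying alpha subunits of the sister enzyme propionyl-CoA carboxylase, had a count ratio of 3.50 ± 0.642 in DHT and 3.39 ± 0.836 in vehicle libraries (SD, n = 6 each), a log2 difference of 0.06 (SE 0.16).

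**Figure D4:**
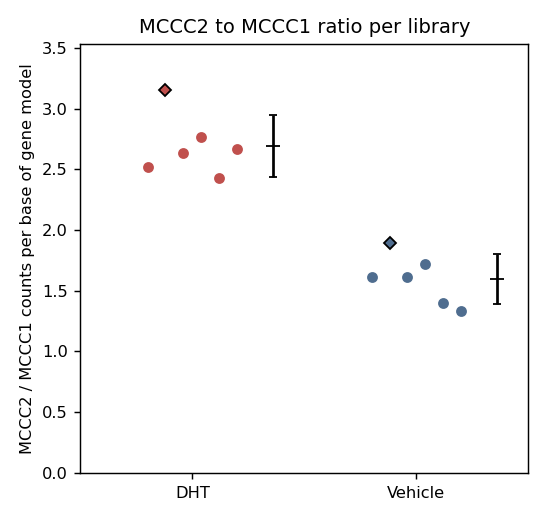
Ratio of MCCC2 to MCCC1 counts per base of gene model (vertical axis from 0) in each library, DHT left and vehicle right; diamonds are the replicate 2 libraries and bars are the mean ± SD of 6. The DHT libraries run from 2.43 to 3.15 and the vehicle libraries from 1.33 to 1.90.

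Levels were compared between members per kb of counted gene model, which is longer than any one transcript. In DHT libraries the order was MCCC2 (55.7 ± 4.40 CPM per kb), IVD (25.9 ± 2.24), MCCC1 (20.8 ± 2.20), BCAT2 (14.7 ± 3.62), BCKDHB (6.04 ± 0.570), DBT (3.41 ± 0.264) and AUH (2.19 ± 0.414). In vehicle libraries it was the same: MCCC2 (34.9 ± 4.00 CPM per kb), IVD (26.8 ± 4.34), MCCC1 (22.0 ± 2.09), BCAT2 (14.1 ± 4.07), BCKDHB (6.52 ± 1.17), DBT (3.29 ± 0.469) and AUH (1.73 ± 0.432), all as mean ± SD over 6 libraries. In both groups the range of IVD overlapped that of MCCC1, while BCAT2, BCKDHB, DBT and AUH were each separate from the next. Within single libraries IVD lay above MCCC1 in all but DHT replicate 1 (22.8 against 23.0 CPM per kb). MCCC1 overlapped BCAT2 through the replicate 2 libraries. Without these, MCCC1 lay at 20.3 CPM per kb or more in DHT and 19.9 or more in vehicle libraries, and BCAT2 at 14.6 or less in DHT and 14.5 or less in vehicle libraries, so they were separate. The ranges of MCCC2 and IVD were separate in DHT libraries (49.2 to 62.4 against 22.8 to 29.6 CPM per kb). They overlapped in vehicle libraries (27.9 to 40.3 against 23.0 to 34.7 CPM per kb). Within every vehicle library, though, MCCC2 lay above IVD, for example 40.3 against 34.7 CPM per kb in replicate 2. BCKDHB and DBT were thus lower per kb than the leucine enzymes IVD and MCC in either group.

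The genes whose levels followed MCCC2 most closely over the 12 libraries were not other members. Of 10243 tested genes with a mean of at least 10 CPM, the highest Pearson correlations of log2 CPM with MCCC2 included NEDD4L (0.984), PPP2CB (0.984), HNRNPAB (0.980) and TBC1D16 (0.976). These points share their libraries and the treatment, so part of each value is the shared rise after DHT. Within the 6 DHT libraries these 4 genes had correlations of 0.656 to 0.914 with MCCC2, and within the 6 vehicle libraries 0.888 to 0.937. The 4 genes were picked by their correlation over these same 12 libraries, so the values within groups also depend on that choice. NEDD4L, a ubiquitin ligase, averaged 136 ± 13.2 CPM in DHT and 70.6 ± 9.32 CPM in vehicle libraries, and TBC1D16, a regulator of membrane traffic, averaged 356 ± 29.8 CPM in DHT and 203 ± 30.4 CPM in vehicle libraries (SD, n = 6 each). MCCC1 had a correlation of -0.139 with MCCC2 over the 12 libraries, 0.562 within DHT and 0.265 within vehicle libraries. Of the other members with a mean of at least 10 CPM, DBT had the highest value over the 12, 0.224. AUH, below that level, had 0.377 over the 12, 0.178 within DHT and -0.474 within vehicle libraries.

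Around the members, 60 genes in 9 lists of uptake, partner and downstream steps were described from the same fit, and 54 of them were tested. Of these 2 rose, ACACA and GLUL, 0 fell and 52 did not pass, which can be read against 1.96% raised and 0.88% lowered among all tested genes. With an unadjusted p under 0.05 as the limit, 6 of the 54 lay higher and 1 lay lower, beside 6.59% and 5.41% of all tested genes. DESeq2 raised 3 (3.12% of all genes) and lowered 0 (1.73%), and limma-voom raised 2 (1.91%) and lowered 0 (0.893%). The 2 raised became 5 without both replicate 2 libraries or without vehicle replicate 2 alone, and 1 without any library on which the call of GLUL depended. These 54 had a median log2 fold change of -0.03, against -0.05 for all tested genes.

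The uptake list holds plasma membrane carriers of large neutral amino acids and the mitochondrial carrier SLC25A44, and 0 of its 6 tested genes passed (1 lower and 0 higher at an unadjusted p under 0.05). SLC7A8, an exchanger of neutral amino acids, had the smallest p, with 90.7 ± 16.9 CPM in DHT and 118 ± 12.8 CPM in vehicle libraries (log2 fold change -0.38, SE 0.13, adjusted p = 0.209, edgeR). SLC7A5, the leucine-importing light chain of the transporter LAT1, is named after its values were seen, because 1 library decided it. It had 87.1, 160, 101, 67.0, 101 and 81.5 CPM in DHT replicates 1 to 6 and 53.7, 234, 46.4, 38.6, 59.4 and 42.3 CPM in vehicle replicates 1 to 6. Replicate 2 was the highest library of each group, and in the other 5 replicate numbers every DHT library lay above every vehicle library. With all libraries SLC7A5 did not pass (log2 fold change 0.33, adjusted p = 0.889, edgeR). It passed without vehicle replicate 2 (1.05, adjusted p = 0.00909) and without both replicate 2 libraries (0.86, adjusted p = 0.00270), and over the alternatives its adjusted p ran from 0.00174 to 0.987, with 4 of 24 past the threshold and no adjusted p given by DESeq2 without a block. SLC3A2, the heavy chain partner of SLC7A5, showed little difference (log2 fold change 0.03, adjusted p = 0.989, edgeR).

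Partners and regulators of the BCKD complex did not pass in any of 3 cases. These are DLD, the dehydrogenase subunit shared with sister complexes (81.9 ± 5.47 CPM in DHT and 88.7 ± 18.1 CPM in vehicle libraries, adjusted p = 0.867), BCKDK, the kinase that switches the complex off (76.7 ± 29.7 and 87.0 ± 41.5 CPM, adjusted p = 0.912), and PPM1K, the phosphatase that switches it on (24.4 ± 5.18 and 23.1 ± 7.37 CPM, adjusted p = 0.955), all SD with n = 6 each and edgeR. Steps for isoleucine and valine after the complex gave 0 of 8 calls, HIBADH coming nearest with a log2 fold change of 0.19 (adjusted p = 0.448). The end of leucine breakdown gave 0 of 3, with OXCT1, which activates acetoacetate, nearest at -0.20 (adjusted p = 0.651). The route from propionyl-CoA to succinyl-CoA gave 0 of 7, with MMAA, a chaperone of the cobalamin-dependent mutase, nearest at 0.20 (adjusted p = 0.604). Electron transfer from the acyl-CoA dehydrogenases gave 0 of 3, with ETFA nearest at -0.22 (adjusted p = 0.615). In these 5 lists 0 genes were past an unadjusted p under 0.05 in either direction in edgeR.

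Among 8 genes of biotin use and other biotin carboxylases, ACACA rose. ACACA, the cytosolic acetyl-CoA carboxylase that starts fatty acid synthesis, had 177, 194 and 209 CPM as lowest, median and highest of the DHT libraries and 99.0, 127 and 155 CPM in vehicle libraries, without overlap (log2 fold change 0.62, SE 0.12, adjusted p = 0.0126, edgeR). It passed in all 24 other fits, with adjusted p up to 0.0403. The other 7 did not pass, among them HLCS, which attaches biotin to all of these enzymes (log2 fold change -0.02, adjusted p = 0.984), PC, pyruvate carboxylase (-0.06, adjusted p = 0.948), PCCA (-0.02, adjusted p = 0.973) and PCCB (0.02, adjusted p = 0.986). Grouped after their values were seen, MCCC2 and ACACA were the biotin carboxylase genes past the threshold. The 7 tested were MCCC1, MCCC2, PCCA, PCCB, PC, ACACA and ACACB, and 1.96% of all tested genes were raised. MCCC2 was chosen with its call known, so this count is a description and not a result about biotin carboxylases.

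Of 7 tested genes for glutamate and transaminase partners, which use or make the glutamate that BCAT enzymes form, GLUL rose. GLUL, glutamine synthetase, had 130, 152 and 231 CPM in DHT libraries and 76.1, 87.4 and 140 CPM in vehicle libraries (lowest, median and highest), which overlap (log2 fold change 0.76, SE 0.18, adjusted p = 0.0316, edgeR). It missed the threshold without any of DHT replicates 1, 4 or 6 or vehicle replicates 1, 3, 4, 5 or 6, with adjusted p from 0.0597 to 0.0845 there, and with no filter on low counts (adjusted p = 0.0550). Without both replicate 2 libraries the log2 fold change of GLUL was 0.77 (adjusted p = 3.24e-04, edgeR). In that fit GPT2 (0.48, adjusted p = 0.00171) and GLUD1 (0.43, adjusted p = 0.0168) of this list also rose. With all libraries GPT2 (0.32, adjusted p = 0.576) and GLUD1 (0.42, adjusted p = 0.262) did not pass. The fit without both replicate 2 libraries raised 608 of 16452 tested genes. Over the 24 alternatives the adjusted p of GLUL ran from 7.68e-17 to 0.0845. Of the sister complexes for pyruvate and 2-oxoglutarate, which share DLD with BCKD, 0 of 11 tested genes passed and 3 were higher at an unadjusted p under 0.05, a limit at which 6.59% of all tested genes were higher. The nearest was PDHX, which holds DLD in the pyruvate dehydrogenase complex, with 72.6 ± 4.22 CPM in DHT and 58.8 ± 3.54 CPM in vehicle libraries (SD, n = 6 each; log2 fold change 0.31, SE 0.09, adjusted p = 0.0851, edgeR). DESeq2 called PDHX (adjusted p = 0.00113).

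**Figure D5:**
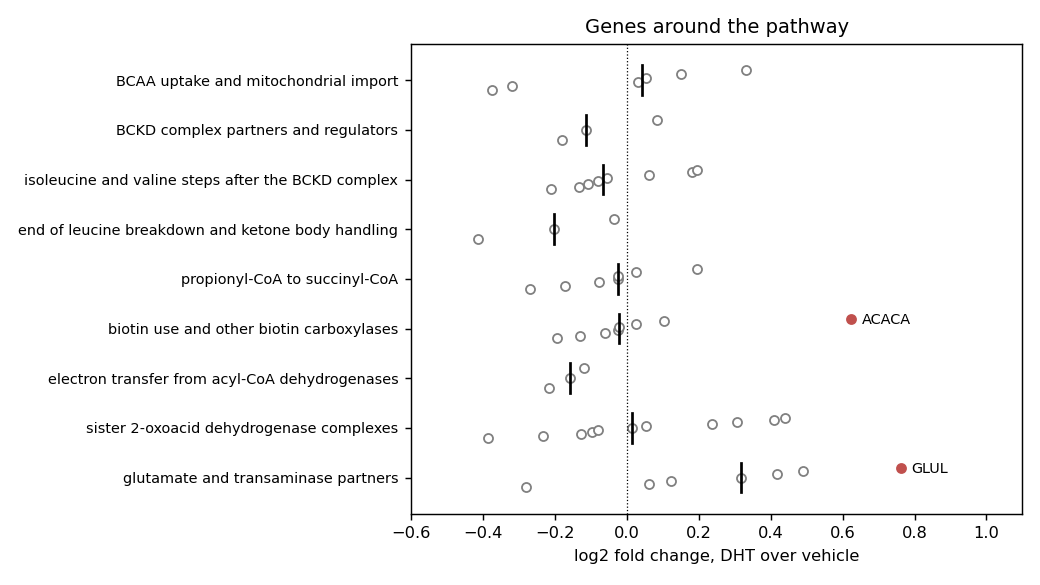
Log2 fold change (horizontal axis, DHT over vehicle) of the tested genes in each of the 9 lists around the pathway; filled red points passed the threshold, open points did not, and the black bar is the median of the list. ACACA at 0.62 and GLUL at 0.76 are the filled points.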

How the data were processed

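The authors deposited 1 table of counts per gene for 12 libraries of single 40 bp reads, for which the submitters' processing notes name STAR, featureCounts and GRCh38 without options. In each library 39.6% to 46.7% of values above 0 were not whole (tolerance 0.005), so the deposited values were taken as estimated counts and rounded before testing. A record broken over 3 lines was left out. The use of strand in counting, and the model of the authors' own comparison, were not stated in the sources used here. The design text and the library protocol differ on whether the RNA was poly-A selected. The authors also deposited their own comparison, holding, per the file headers, p-values with and without adjustment and a log2 fold change for each gene.

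After filterByExpr and TMM scaling, genes were tested in edgeR 4.0.16 (R 4.3.3, quasi-likelihood F-test, group as the only term, Benjamini-Hochberg over 16355 genes). The SE was obtained by dividing the log2 fold change by the root of F, and intervals use the t distribution of that test. The likeness measure used log2(CPM + 0.5) and the MCCC2 to MCCC1 ratio added 0.5 to each count. Motifs were searched in RefSeq promoter windows (GRCh38.p14) with the most upstream start per gene. Alternatives were a replicate block, DESeq2 1.42.0, limma-voom (limma 3.58.1), other scalings and filters, unrounded values and libraries left out.

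The members and lists were chosen with earlier results of these data known. Besides the members, the text names up to 3 genes per list that passed, or the gene with the smallest p, and, of the 5 genes most like MCCC2, 4. Some items are not reported here. BCKDK, PPM1K, SLC7A5, SLC3A2, HLCS, PC, PCCA, PCCB, GLUD1, GPT2, PDK1 and PDP2 are named in addition, after their values were seen.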

Additional observations from a re-analysis of the deposited data

Results flagged for a closer look

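BCAT2 stood far above the rest of its group in both replicate 2 libraries. It was at 99.7 CPM in DHT replicate 2 and at 100.4 CPM in vehicle replicate 2, and in each group the gap to the next library exceeded the 95% critical value of Dixon's test for 6 samples (0.773 of the range in DHT and 0.709 in vehicle libraries). These were 2 flags among 16 groups examined, and chance flags about 1 in 20. Both libraries also stand apart on the first principal component, and whether this accounts for the BCAT2 level was not tested.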

How the results depend on the processing

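MCCC2 was the 1 member called in each of 24 alternatives, and the MCCC2 to MCCC1 log2 difference stayed between 0.71 and 0.81 in 16. The sign of BCAT2 turned without DHT replicate 2 (-0.093; -0.093 to 0.23 with 1 library left out), and that of IVD turned with library totals only (0.012) and without vehicle replicate 2 (0.036; -0.093 to 0.036 with 1 left out), none of them past the threshold. The count of changed genes, 464, became 1286 with the replicate block, 793 in DESeq2, 1452 in DESeq2 with the block, 920 without both replicate 2 libraries, 788 with the block and without them, and 278 to 619 with 1 library left out. Genes raised in the lists, 2, became 7, 3, 9, 5 and 6 under those 5 settings in the same order, 1 without a filter, and 1 to 5 with 1 library left out. Lowered list genes, 0, became 1 with the block (SLC7A8, adjusted p = 0.0271) and 2 in DESeq2 with the block. The DESeq2 fit with the block and the block fit without replicate 2 were chosen after seeing the data; the cause of these moves was not tested. Deviations of same-numbered libraries correlated from -0.24 to 0.87 over tested genes, and 3 of the 6 DHT libraries correlated best with their own number, so the numbers were not taken to pair the samples. The genes that the block fit in edgeR added to those raised included GLUD1, PDHX, PDK1 and PDP2 (adjusted p 0.00593 to 0.0427). With the replicate block MCCC2 had a log2 fold change of 0.68 and a ratio difference of 0.76. Low counts left BCAT1 and BCKDHA untested in the main fit. Without a filter both were tested and did not pass (adjusted p = 0.860 for BCAT1 and 0.969 for BCKDHA, edgeR).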
